A study of Homo sapiens with 14 samples.

Results

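The genes described here make the enzymes that crosslink extracellular matrix: the lysyl oxidases LOX, LOXL1, LOXL2, LOXL3 and LOXL4, the transglutaminase TGM2 and the lysyl hydroxylases PLOD1, PLOD2 and PLOD3. They were taken as a family by function, 9 of 20136 protein-coding genes in GENCODE release 44 lifted to hg19 (GRCh37), and every peak that overlapped the body of a gene plus 20 kb on each side was assigned to that gene. The data are CUT&Tag peak lists, in which an antibody tethers a transposase that cuts and tags DNA near its target. The cells were LX-2, an immortalised human hepatic stellate cell line of wild-type genotype, cultured for 2 days on matrix that was either soft or stiff, so both groups are 1 line in culture and differ by the matrix label alone. The antibodies were against phosphorylated JUN (p-JUN), an AP-1 transcription factor, and against 3 histone modifications: H3K4me3, a mark of start sites in use, H3K27ac, found at enhancers and promoters in use, and H3K27me3, a mark of Polycomb repression. There were 2 libraries per matrix for p-JUN, H3K4me3 and H3K27me3 and 1 merged list per matrix for H3K27ac, 14 lists in all. The stiff p-JUN libraries carry TCP in their titles where the other stiff libraries carry a stiffness code. The study uses TCP for tissue culture plastic, while the treatment label of these libraries is stiff matrix. Their substrate may therefore have differed from that of the histone libraries, and p-JUN values are those of libraries labelled soft and stiff.

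Lysyl oxidases oxidise lysines of collagen and elastin to aldehydes that then join fibres to each other, and the family is known for its part in stiffening of the scarred liver. Lysyl hydroxylases act earlier, inside the cell, and hydroxylate lysines of procollagen, with PLOD2 directed to the ends of the chains where crosslinks form. TGM2 joins glutamine to lysine side chains in fibronectin and other matrix proteins. AP-1 binds the 7-base site TGACTCA, which reads TGAGTCA on the other strand, and it is a common factor at enhancers of mesenchymal cells.

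The p-JUN lists held 48163 to 54168 peaks, the H3K4me3 lists 18096 to 18857, the H3K27ac lists 18238 on soft and 13322 on stiff, and the H3K27me3 lists 19843 and 9228 on soft against 7104 and 6974 on stiff. The soft H3K27ac list was longer than the stiff one, and H3K27me3 soft replicate 1 stood apart from the other 3 libraries of that mark. Levels below are fragments at the summit of a peak, recovered as whole numbers from the deposited fold and −log10 p. Their medians were 60 to 64 for p-JUN, 120 to 207 for H3K4me3 and 26 to 27 for H3K27ac. H3K4me3 was called in all 4 libraries at the start site of 7 of 13 stellate or mesenchymal markers, against 61.7% of all protein-coding genes. These were COL1A1, ACTA2, PDGFRB, RELN, TIMP1, VIM and THY1. COL3A1 was called in 1 library, and COL1A2, DES, LRAT, DCN and LUM in none. The mark was called in all 4 at 0 of 6 hepatocyte markers, 1 of 3 endothelial markers, 1 of 4 leukocyte markers and 1 of 3 cholangiocyte markers.

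The p-JUN regions away from start sites carry much of the signal at these genes, so the AP-1 site of a few is shown as it stands in hg19, on the plus strand. Capitals mark the AP-1 site. The LOX site lies 11.5 kb upstream of the start site (chr5:121425461-121425521), the first LOXL1 site 30.5 kb downstream of its start (chr15:74249281-74249341), the second LOXL1 site 19.6 kb upstream in a region called only in the stiff libraries (chr15:74199168-74199228), the PLOD1 site in an intron of that gene 4.7 kb from the start (chr1:11999469-11999529) and the PLOD2 site in an intron 29.0 kb from the start (chr3:145849939-145849999).
LOX: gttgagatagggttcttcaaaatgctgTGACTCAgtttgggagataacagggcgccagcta
LOXL1 downstream: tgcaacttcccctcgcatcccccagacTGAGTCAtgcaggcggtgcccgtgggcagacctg
LOXL1 upstream: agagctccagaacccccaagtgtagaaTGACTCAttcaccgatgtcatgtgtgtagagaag
PLOD1: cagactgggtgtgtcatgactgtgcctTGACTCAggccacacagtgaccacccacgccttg
PLOD2: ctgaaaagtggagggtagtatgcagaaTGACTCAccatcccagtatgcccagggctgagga

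p-JUN peaks were found at all 9 genes, in every p-JUN library. Summed over the genes the soft libraries listed 49 and 45 peaks against 45 and 53 in the stiff ones, 47 ± 2.83 and 49 ± 5.66 (SD, n = 2 each). On the log2 scale the ratio was 0.06, within the spread of the libraries (two-sided exact permutation test, p = 1, where the smallest p that 2 libraries against 2 allow is 0.33). The median over the 9 genes was 7.24 p-JUN peaks per 100 kb of window against 2.40 over all protein-coding genes, with an interquartile range of 0.929 to 4.43 over all genes. LOX, LOXL1, LOXL2, LOXL3 and TGM2 lay above that range, PLOD1 (3.07) and PLOD2 (3.71) within it, and LOXL4 (1.65) and PLOD3 (1.91) below the median of all genes. LOXL2 held the most, with 14 and 13 peaks on soft against 13 and 15 on stiff, and TGM2 followed with 11 and 9 on soft against 9 and 10 on stiff. LOXL4 and PLOD3 held 1 peak in each library. LOX had 5 and 5 peaks on soft against 2 and 4 on stiff, which did not overlap, while PLOD1 had 2 and 2 on soft against 3 and 3 on stiff, which did not overlap either. At the other 7 genes the counts of the matrices overlapped or touched. Both stiff libraries had fewer p-JUN peaks than both soft ones at 3.81% of all genes, and more at 4.64%.

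**Figure D1:**
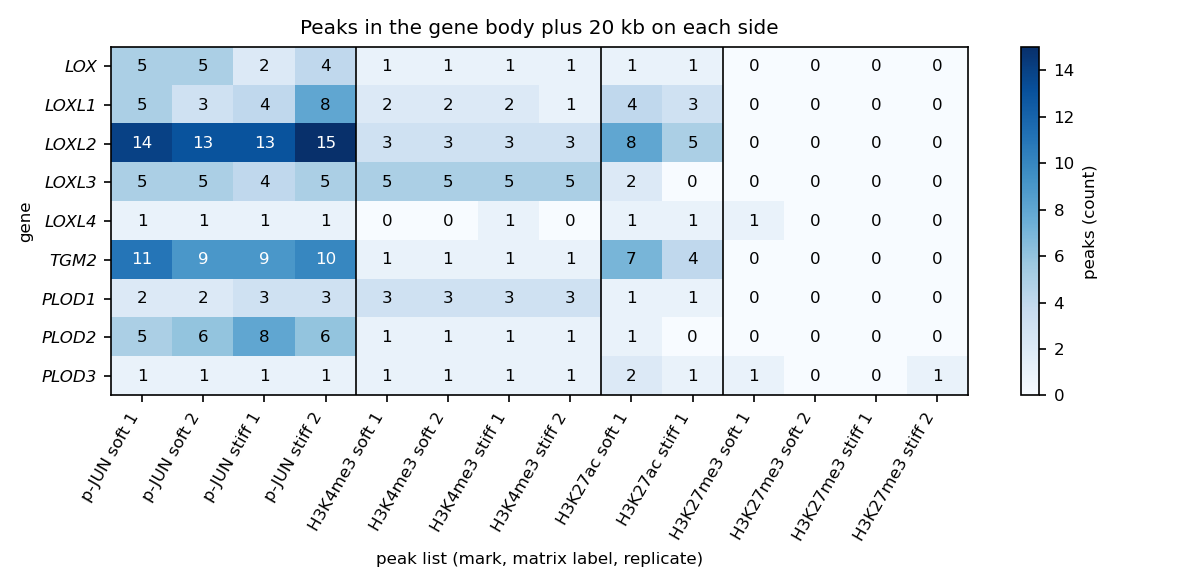
Number of peaks (colour and printed count) in the body of each gene plus 20 kb on each side, for each of the 14 lists named by mark, matrix label and replicate. LOXL2 and TGM2 hold the most p-JUN and H3K27ac peaks, and no gene has an H3K27me3 peak in more than 2 lists.

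H3K4me3 totals were 17 and 17 peaks on soft against 18 and 16 on stiff, equal in their means (exact permutation test, p = 1). H3K27ac fell from 27 peaks in the soft list to 16 in the stiff list, a log2 ratio of -0.75 with a 95% exact binomial interval of -1.75 to 0.19, which covers counting error only and includes 0. With both lists cut to the same length the counts were 23 and 16. H3K27me3 was nearly absent, with 2 and 0 peaks on soft against 0 and 1 on stiff.

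Start sites were read first. A promoter was called where a peak lay within 1 kb of a protein-coding start site of the gene. H3K4me3 was called in all 4 libraries at 8 of the 9 genes, all but LOXL4, against 61.7% of all protein-coding genes. No member was called in both libraries of 1 matrix and in neither of the other. The H3K4me3 summit was highest at PLOD3 and LOX. At LOX it held 278 and 359 fragments on soft against 373 and 578 on stiff. At PLOD3, whose peak also covers the start of ZNHIT1, it held 289 and 400 on soft against 375 and 527 on stiff. The soft and stiff values of PLOD3 overlapped, and at LOX the stiff libraries were above the soft ones before libraries were scaled to their own medians.

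As multiples of the library median, the H3K4me3 level over 4 libraries was 2.57 ± 0.19 (SD, n = 4) at PLOD3 and 2.53 ± 0.20 at LOX, which did not differ beyond their spread. LOXL2 followed at 1.95 ± 0.23, LOXL3 at 1.80 ± 0.07, PLOD2 at 1.64 ± 0.16 and LOXL1 at 1.46 ± 0.205. LOXL2 did not overlap with LOX, and from LOXL2 to LOXL1 each gene overlapped with the next. PLOD1 lay below them at 0.79 ± 0.09 and TGM2 lower still at 0.16 ± 0.03, each without overlap with the gene above it. TGM2 held only 17 and 29 fragments on soft against 21 and 30 on stiff. Of the genes called in all libraries, the interquartile range over all protein-coding genes was 0.97 to 2.21. The LOXL4 start site was called in stiff replicate 1 alone, with 17 fragments.

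**Figure D2:**
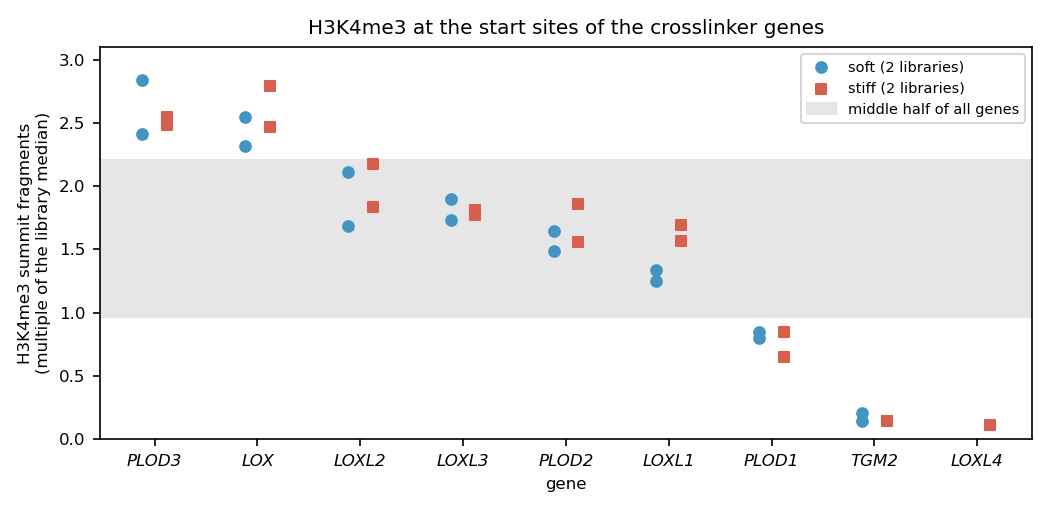
H3K4me3 summit fragments at the start site of each gene as a multiple of the library's median peak, for 2 soft (circles) and 2 stiff (squares) libraries, with genes in order of their mean and the grey band spanning the interquartile range of all genes called in every library. LOX and PLOD3 are above the band, and PLOD1, TGM2 and LOXL4 below it. Of the genes called in every library, only LOXL1 has soft values (1.25 and 1.34) that do not overlap the stiff ones (1.57 and 1.70).

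The start regions of 2 genes at the ends of this order are shown next. Bases 150 to 1 before the RefSeq start (GRCh38.p14, minus strand) are shown for LOXL4 (chr10:98268195-98268344), where H3K4me3 was almost lacking, and for LOX (chr5:122078260-122078409), where it was high. Capitals mark CpG.
LOXL4: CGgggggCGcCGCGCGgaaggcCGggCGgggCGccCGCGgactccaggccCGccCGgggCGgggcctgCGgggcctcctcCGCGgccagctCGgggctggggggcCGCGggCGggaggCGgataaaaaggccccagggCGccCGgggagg
LOX: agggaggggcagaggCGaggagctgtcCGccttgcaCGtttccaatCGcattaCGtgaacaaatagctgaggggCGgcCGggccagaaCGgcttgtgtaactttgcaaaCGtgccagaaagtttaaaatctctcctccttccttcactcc
The LOXL4 stretch holds 23 CpG and the LOX stretch 9. Over the 300-base RefSeq promoters, LOXL4 had 45 CpG, more than 96.5% of 35116 promoters of that length, while the median promoter had 14 and the LOX entries 19 to 21. Promoter entries matched 7 of the 9 genes, and TGM2 and LOXL2 were not among them. Neither spelling of the AP-1 site occurred in any of the 10 entries of these 7 genes, and 4.95% of all promoters held one.

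p-JUN was called at the start sites of LOX, LOXL2, LOXL3, PLOD2 and PLOD3 in all 4 libraries, 5 of 9 genes against 37.5% of all genes. The strongest was LOXL3, where the peak is shared with DOK1 and held 211 and 168 fragments on soft against 161 and 182 on stiff. At TGM2 a start-site peak was called in soft replicate 1 (106 fragments) and stiff replicate 2 (88), at LOXL1 in stiff replicate 2 alone (61), and at LOXL4 and PLOD1 in none. H3K27ac was called at the start of LOX and PLOD3 in both lists and of no other member, 2 of 9 against 20.9% of all genes. The LOX summit, 1.1 kb into the gene, held 21 fragments on soft and 16 on stiff. The PLOD3 summit held 26 and 20. No member had H3K27me3 at its start site in any library, where 10.1% of all genes had it in at least 1.

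Peaks were then merged across the libraries of a mark into regions wherever they shared at least 1 base. This gave 58 p-JUN regions, of which 37 were called in all 4 libraries, and 45 were over 1 kb from any protein-coding start site. Regions called in both libraries of 1 matrix and in neither of the other are named stiff-only or soft-only, or regions of 1 matrix alone. By this rule 4 regions were stiff-only and 2 soft-only, where 2.75% and 1.74% of all p-JUN regions were so called. The 4 stiff-only regions lay 19.6 kb upstream of LOXL1 (46 and 35 fragments), 12.9 kb upstream of LOXL3 in an intron of M1AP (60 and 85), 2.6 kb upstream of PLOD2 (43 and 51) and in an intron of MFN2, 55.7 kb from the PLOD1 start (22 and 18). The 2 soft-only regions lay in the LOX 3′ untranslated region (33 and 35) and near the TLX2 start in the LOXL3 window (29 and 23). Only the region in the LOX 3′ untranslated region lies in the body of a member, apart from the one before PLOD2, which overlaps the longest PLOD2 gene model. That PLOD2 region is 2.6 kb upstream of the canonical start but within 1 kb of another protein-coding PLOD2 start site. By the 1 kb rule it is thus also a start-site region. With lists of a mark cut to equal length, there were 3 stiff-only or soft-only regions in place of 6, and with a window of 5 kb there were 2. Without stiff replicate 1 there were 10 and without stiff replicate 2 there were 11. Fewer libraries make the rule looser, so these 2 counts could hardly fall and do not test stability.

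**Figure D3:**
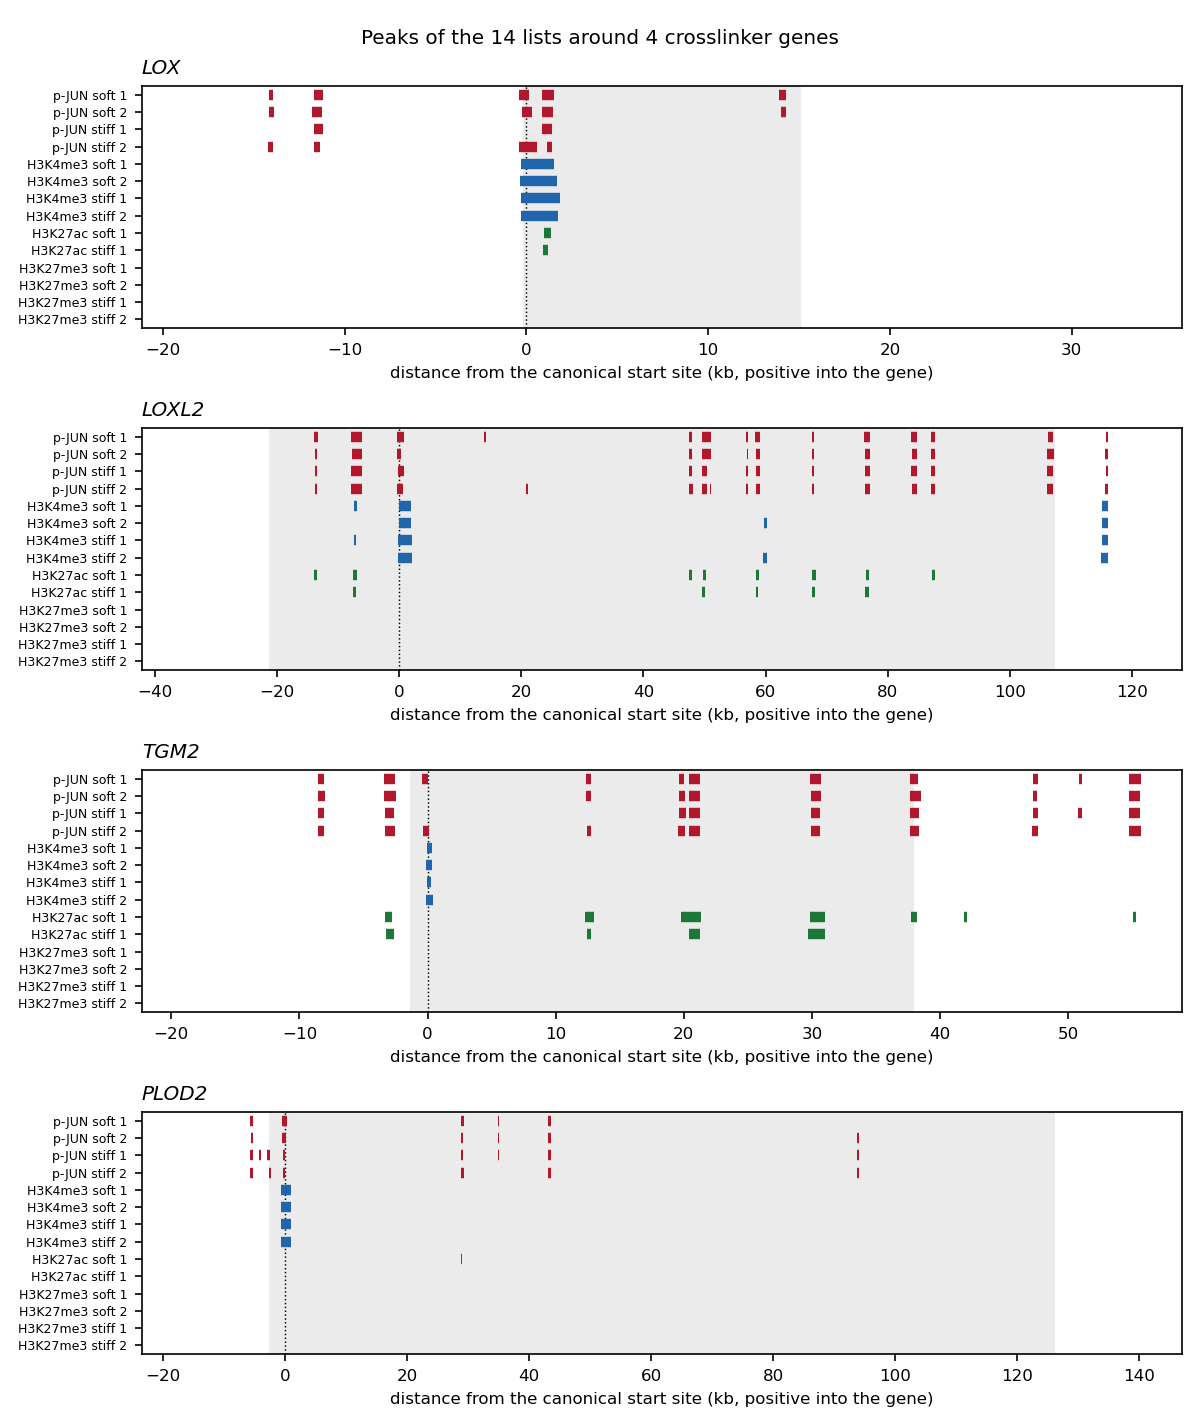
Peaks of each of the 14 lists (rows, coloured by mark) along LOX, LOXL2, TGM2 and PLOD2, plotted by distance in kb from the canonical start site (dotted line), with the annotated gene body shaded. LOXL2 and TGM2 show rows of p-JUN regions inside and beyond the gene that partly carry H3K27ac. Of these, 13 of 15 at LOXL2 and 8 of 11 at TGM2 recur in every p-JUN library. H3K4me3 sits at the start of TGM2, while at LOXL2 1 of its 4 regions does.

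LOXL2, a lysyl oxidase-like enzyme with scavenger receptor domains, had the strongest p-JUN regions of the family. A region in its intron 49988 bases from the start (chr8:23210555-23212113) held 607 and 561 fragments on soft against 502 and 550 on stiff. A region 7.5 kb upstream of the canonical start, inside the longer gene model and an intron of ENTPD4 as well (chr8:23267702-23269475), held 595 and 558 on soft against 501 and 569 on stiff. A region 58.7 kb into the gene (chr8:23202587-23203329) held 565 and 529 on soft against 487 and 645 on stiff. All 3 regions hold the AP-1 site, as do 2 weaker ones at this gene. The start-site p-JUN peak of LOXL2, by contrast, held 56 and 45 fragments on soft against 37 and 65 on stiff.

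At TGM2 the strongest region (chr20:36737993-36738948) lay past the end of the gene in an intron of RPRD1B, with 431 and 333 fragments on soft against 389 and 478 on stiff, and it holds the AP-1 site. The next lay 3.0 kb upstream of the TGM2 start (chr20:36796162-36797054), with 412 and 386 on soft against 322 and 406 on stiff, and does not. Another lay in an intron 20.8 kb from the start, with 324 and 276 on soft against 290 and 311 on stiff. TGM2 thus combined 5 regions with an AP-1 site, the same number as LOXL2, with the lowest H3K4me3 level of the 8 marked start sites.

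The strongest region of LOXL1, an elastin crosslinking enzyme, lay in its intron 14.8 kb from the start (chr15:74233097-74234692), with 247 and 215 fragments on soft against 252 and 328 on stiff. A second lay 30.5 kb from the start, past the gene (226 and 223 on soft, 186 and 200 on stiff), and another 1.9 kb upstream, in the antisense non-coding gene LOXL1-AS1 (121 and 87 on soft, 103 and 111 on stiff). At LOX, which acts on collagen and elastin, the strongest regions were 11.5 kb upstream (64 and 57 on soft, 69 and 60 on stiff) and 1.3 kb into the gene (76 and 64 on soft, 53 and 53 on stiff). At LOXL4 the single region lay 1.5 kb upstream, with 102 and 82 on soft against 97 and 111 on stiff.

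Among the lysyl hydroxylases, PLOD1 had its strongest region at the MFN2 start (138 and 110 on soft, 96 and 128 on stiff) and another in its own intron (102 and 85 on soft, 80 and 82 on stiff), and all 3 of its regions hold the AP-1 site. PLOD2, induced by hypoxia in many cells, had its strongest 5.5 kb upstream, with 60 and 52 on soft against 67 and 93 on stiff. PLOD3 had its only region at the start site, with 52 and 48 on soft against 40 and 63 on stiff. No region of the lysyl hydroxylases reached, in any library, the lowest value of the 3 strongest regions of LOXL2 or of TGM2.

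The AP-1 site lay within 50 bases of a summit at 20 of the 58 regions, 34.5% (95% Wilson interval 23.6% to 47.3%), against 37.4% of all 61411 p-JUN regions, so the family had the site about as often as p-JUN regions in general. It was in 5 regions each at LOXL2 and TGM2, 3 at PLOD1, 2 each at LOX, LOXL1 and PLOD2, 1 at LOXL3 and none at LOXL4 and PLOD3.

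Next, the level at the 37 p-JUN regions shared by all libraries was compared, with each library centred on its median over 40433 shared regions of the genome. The median log2 difference, stiff minus soft, was -0.09 over the member regions and -0.05 over all regions, and 13 member regions were higher and 24 lower on stiff. Both stiff libraries were above both soft ones at 7 regions and below them at 15, where 22.5% and 33.3% of all shared regions were so placed. As each library pools many cells, fewer cells with the factor and less of it per cell cannot be told apart. By limma with Benjamini-Hochberg adjustment over all shared regions, 8 of the 37 passed an adjusted p of 0.05, against 13.5% of all shared regions.

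Of the 8, 4 were higher and 4 lower on stiff. The largest rise was in an intron of M1AP, 10.6 kb upstream of LOXL3 (chr2:74791339-74791899), with 83 and 74 fragments on soft against 105 and 145 on stiff, a log2 difference of 0.60 ± 0.14 (SE, limma adjusted p = 0.0012). Both stiff libraries were above both soft ones. TGM2 had rises at 2 regions and a fall at 1. In an intron of RPRD1B, 47.4 kb from the TGM2 start, fragments went from 109 and 91 to 123 and 150 (log2 0.39 ± 0.13, limma adjusted p = 0.028). In its own intron, 19.8 kb from the start, they went from 167 and 143 to 185 and 219 (log2 0.33 ± 0.11, limma adjusted p = 0.026). At the 3′ end of the gene, 37.8 kb from the start, they went from 292 and 250 to 213 and 226, a log2 difference of -0.36 ± 0.09 (limma adjusted p = 0.0042). TGM2 regions therefore moved in both directions within 1 gene.

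LOXL1 also moved both ways, with a rise at the intronic region named above (log2 0.26 ± 0.09, limma adjusted p = 0.037) and a fall at the region 30.5 kb from the start (log2 -0.28 ± 0.10, limma adjusted p = 0.048). LOXL2 had 2 falls, at its strongest region (log2 -0.21 ± 0.07, limma adjusted p = 0.028) and at one 67.8 kb from the start, where fragments went from 84 and 81 to 56 and 70 (log2 -0.45 ± 0.16, limma adjusted p = 0.047). No region of LOX, LOXL4, PLOD1, PLOD2 or PLOD3 passed. The nearest were the PLOD2 region 5.5 kb upstream (log2 0.44 ± 0.17, limma adjusted p = 0.065) and the LOX region 1.3 kb into the gene (log2 -0.45 ± 0.18, limma adjusted p = 0.070), and the soft and stiff libraries did not overlap at either.

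**Figure D4:**
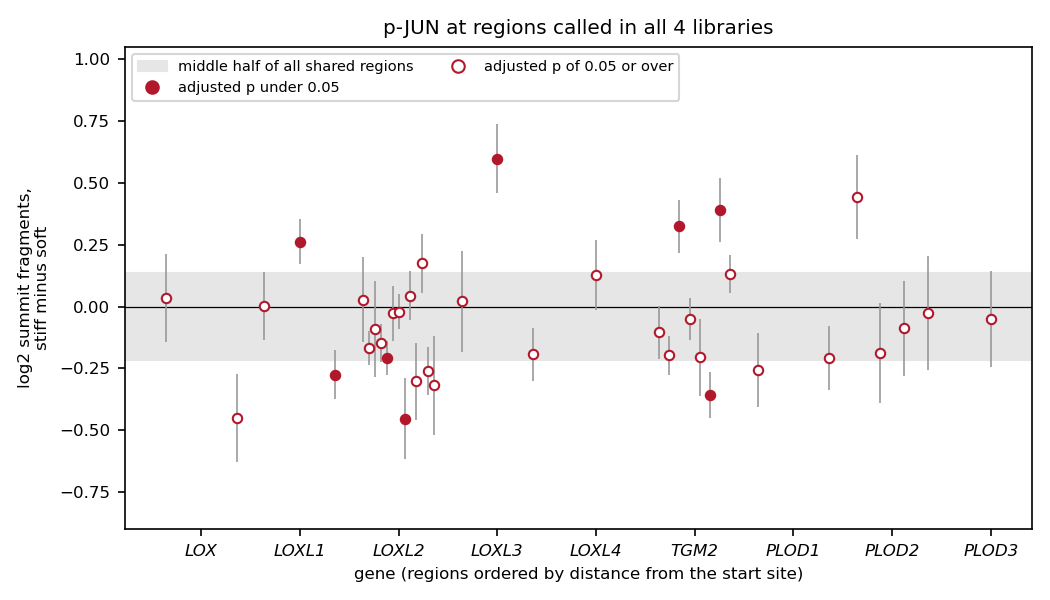
Log2 difference in p-JUN summit fragments, stiff minus soft, with its limma standard error, for the 37 regions called in all 4 libraries at each gene, ordered within a gene by distance from the start site, with filled points for an adjusted p under 0.05 and the grey band for the interquartile range of all shared regions. The 8 filled points divide into 4 above and 4 below 0.

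These calls rest on little spread. The soft libraries differed at shared summits by 0.753 of the variance that counting alone would give, the stiff libraries by 1.08 and pairs across matrices by 1.86 to 2.36, so the soft pair differed by less than sampling noise. Counted as 1 sample, they left 1 of the 8 calls, the LOXL3 region (limma adjusted p = 0.049), and with the deposited fold in place of fragments or without centring no call was left. With any 1 library left out, the regions that passed were no longer the same 8. The log2 difference then ran from 0.48 to 0.72 at the LOXL3 region and from -0.26 to -0.15 at the strongest LOXL2 region.

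H3K4me3 gave 18 regions, of which 15 were called in all 4 libraries. None was called in both libraries of 1 matrix and in neither of the other, where 1.77% of all regions were stiff-only and 1.25% soft-only. Over the 15 shared regions the median log2 difference was 0.07, against -0.01 over all 16098, with 9 higher and 6 lower on stiff. Of the 15, 5 lay at the starts of neighbours and not of members (KIAA2013, MFN2, TLX2, AUP1 with HTRA2, and R3HCC1). Both stiff libraries were above both soft ones at 4 regions and below at 2, against 23.4% and 28.4% of all shared regions. None passed an adjusted p of 0.05, against 4.46% of all shared regions, and 1 of the 15 had an unadjusted p under 0.05, against 22.0% of all shared regions. That region was the LOXL1 start site, with 150 and 189 fragments on soft against 237 and 351 on stiff (log2 0.31 ± 0.09, limma adjusted p = 0.063). Away from start sites, weak H3K4me3 was called in all 4 libraries in an intron of M1AP, 20.2 kb upstream of LOXL3. That region held 15 and 18 fragments on soft against 19 and 30 on stiff. At LOXL2 the mark was called 7.2 kb upstream in soft replicate 1 (17 fragments) and stiff replicate 1 (18). It was also called 60026 bases into LOXL2 in soft replicate 2 (19) and stiff replicate 2 (40).

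H3K27ac gave 27 regions, 16 called on both matrices, 11 on soft alone and none on stiff alone. Over all H3K27ac regions 35.0% were soft-only and 10.9% stiff-only. With 1 list per matrix there is no replicate check, and the stiff list was the shorter. The 11 soft-only regions lay at TGM2 (3), LOXL2 (3), LOXL3 (2), LOXL1, PLOD2 and PLOD3. Their soft summits held 15 to 56 fragments with a median of 32, and those of the 16 shared regions 20 to 103 with a median of 52, so the regions missing from the stiff list were on the whole the weaker ones. The strongest of them was 47.8 kb into LOXL2, with 56 fragments, above the soft value of 9 of the 16 shared regions. The LOXL3 pair lies at the AUP1 and HTRA2 start sites, and the soft-only PLOD3 peak lies in the same promoter as the shared one.

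Over the 16 shared regions the median log2 ratio, stiff over soft, was -0.15 after centring. Over all 11044 it was -0.02, with an interquartile range of -0.25 to 0.23, which holds the member median. Of the 16 regions, 2 were higher and 14 lower, and the 14 ran from -0.008 to -0.76. No member region passed 2-fold in either direction, where 0.589% of all shared regions did so on stiff and 0.299% on soft. The 95% exact binomial interval narrows as fragments rise. The 16 regions had a median of 52 soft fragments, against 27 over all peaks of the soft list. Shares of intervals that leave out 0 are therefore not compared at like counts. The interval left out 0 at 3 of the 16 regions, all lower on stiff, where it lay below 0 at 2.13% of all shared regions and above 0 at 2.01%. These were the TGM2 introns 20.9 kb from the start (103 and 64 fragments, log2 -0.49, -0.97 to -0.03) and 12.5 kb from the start (60 and 31, log2 -0.76, -1.43 to -0.11), and the LOXL2 intron 50040 bases from the start (84 and 48, log2 -0.61, -1.16 to -0.09). Of the other genes, LOXL1 had its strongest region 2.1 kb upstream with 89 and 72 fragments (log2 -0.11), LOXL4 had 20 and 21 upstream (log2 0.26) and PLOD1 22 and 21 at the MFN2 start (log2 0.13). The start-site regions of LOX (log2 -0.20) and PLOD3 (log2 -0.19) were given above, and LOXL3 and PLOD2 had no region in the stiff list.

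**Figure D5:**
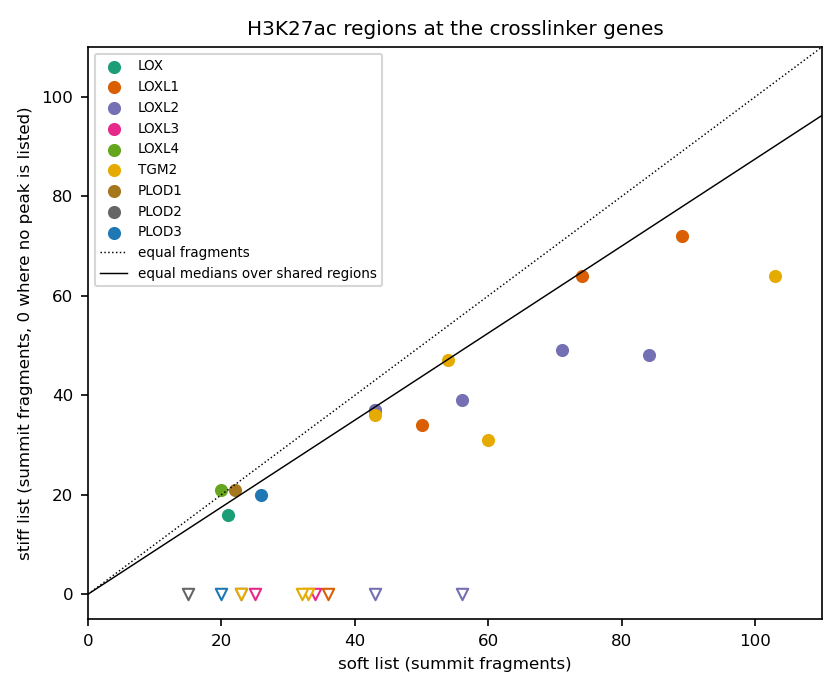
H3K27ac summit fragments in the stiff list against the soft list for the 27 regions, coloured by gene, with filled circles for regions in both lists, open triangles at 0 for regions in the soft list alone, a dotted line for equal fragments and a solid line for equal medians over all shared H3K27ac regions. Of the 16 circles, 14 lie below the solid line, and 11 triangles lie at 0 (a pair of LOXL2 circles coincide at 43 and 37, and a LOXL2 and a TGM2 triangle at 23).

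The p-JUN and H3K27ac regions coincided at many places. Of the 58 p-JUN regions, 24 overlapped H3K27ac on soft and 16 on stiff, against 26.9% and 20.1% of all p-JUN regions. All 16 carried it on both matrices, 8 on soft alone and none on stiff alone, against 9.64% and 2.88% of all p-JUN regions. Read from the acetylation side, all 16 shared H3K27ac regions and 8 of the 11 soft-only ones overlapped a p-JUN region. The 8 regions acetylated on soft alone lay at LOXL2 (3), TGM2 (3), LOXL3 and PLOD2. None of the 8 was at a member's start site, and 5 held the AP-1 site.

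The p-JUN level at these places moved both ways. The 7 regions acetylated on soft alone that were shared by all p-JUN libraries had log2 differences from -0.36 to 0.33 with a median of 0.03, and 3 were lower on stiff. The 15 shared regions acetylated on both matrices had a median of -0.17, with 11 lower, and the 15 acetylated on neither a median of -0.09, with 10 lower. The difference between these classes was not tested, and the stiff p-JUN libraries may have had another substrate than the stiff H3K27ac cells. By level, p-JUN regions acetylated on soft alone had a median of 160 fragments and those acetylated on both 163, while the 34 acetylated on neither had 47.

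H3K27me3 gave 2 regions, both over 10 kb from a member's start site. Neither was called in both libraries of 1 matrix and in none of the other, where 0.484% of all H3K27me3 regions were stiff-only and 7.54% soft-only. A region 14.1 kb upstream of LOXL4 was called in soft replicate 1, at a deposited fold of 3.49. One past the end of PLOD3 was called in soft replicate 1 (3.54) and stiff replicate 2 (2.85). Soft replicate 1 is the library with the longest H3K27me3 list, and its part in these calls was not tested.

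Other genes of matrix crosslinking and collagen processing, 43 in number, were read the same way at their start sites. H3K4me3 was called in all 4 libraries at 28 of the 43 and in none at 15. p-JUN was called in all at 17 and in some at 9, and H3K27ac in both lists at 6. Over all protein-coding genes, the shares called in every list were 61.7% for H3K4me3, 37.5% for p-JUN and 20.9% for H3K27ac. P3H1, a prolyl hydroxylase, had the highest H3K4me3 level at 3.89 times the library median, and PCOLCE2, an enhancer of procollagen cleavage, the lowest at 0.115. Calls on 1 matrix alone, in every list of it, were H3K27ac on soft at P4HB, ADAMTS3 and FN1, and H3K27me3 on stiff at PCOLCE2. H3K27ac had 1 list per matrix, and 2119 of all 20136 genes were called on soft alone. H3K27me3 was called on stiff alone at 7 of all 20136 genes.

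Over all 14 lists, the gene over 100 kb away whose window was covered most like that of LOX was HINT3, with a root mean square difference of 0.19 in log2(1 + covered bases). For LOXL2 it was PHLDB2 (0.11), for TGM2 ZMYND8 (0.35) and for PLOD2 IFI27L1 (0.11). The median difference over all genes was 3.26 to 4.71.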

How the data were processed

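CUT&Tag peak lists of LX-2 cells were used as deposited. Per the study's methods and the submitters' processing notes, the authors trimmed reads with Trim Galore, aligned them to hg19 with Bowtie2 and marked duplicates with Picard. The peak format is that of MACS2, whose version, options and control are not given in the sources used here. The deposited columns are a fold, the ratio of summit to local background, the −log10 of p and of q, a score and, in narrow lists, the summit position. The p-JUN, H3K4me3 and H3K27ac lists (10) are narrow and those of H3K27me3 (4) broad. Sequencing depth is not given in the lists.

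Peaks on 24 chromosomes were used, and all lay within the GRCh37 chromosome lengths. Summit fragments were recovered from the fold and −log10 p at 100% of narrow peaks (relative tolerance 0.0001). Log2 fragments of regions called in all 4 libraries, centred on the library median, were tested with limma 3.58.1 in R 4.3.3 (lmFit, eBayes with trend, Benjamini-Hochberg over all shared regions). Peak counts were compared by exact permutation tests with scipy 1.17.1, and sequences read with pysam 0.24.0 and from RefSeq tables. The study's methods call the sequencing replicates biological, and the labels do not say what separated them, so p-values measure the spread between these libraries. Intervals cover counting error only.

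Members were named by function and lists with earlier results of these data known. All 9 members are named. Regions are named where strongest at a gene for p-JUN, H3K27ac or H3K4me3, called on 1 matrix alone, holding the AP-1 site (by count) or past the adjusted p. The other 43 genes are named where highest, lowest or called on 1 matrix alone. On simulated data, 200 regions changed 2-fold among 40433 p-JUN regions were recovered at 67.5% with 4 false calls, and among 16098 H3K4me3 regions at 81.5% with 0. The spread between these simulated libraries was set and not taken from the data. The region step recovered all 200 planted p-JUN regions of each matrix. Its libraries were copies of 1 list with peaks removed, so this checks the code alone. The alternatives were other windows, thresholds, list lengths, matching rules, units, centring and leaving out libraries.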

Additional observations from a re-analysis of the deposited data

How the results depend on the processing

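The log2 ratio of member p-JUN peaks (0.06) was 0 with windows of 5 kb, -0.0242 in gene bodies alone, -0.0159 with a stricter −log10 q and -0.0159 with lists of equal length, and ran from -0.0627 to 0.17 without 1 library. That of H3K27me3 peaks (-1) was 0 with equal lists and ran from -2 to 0 without 1 library. The 6 p-JUN regions of 1 matrix alone became 2 with 5 kb, 2 in gene bodies, 3 with the stricter q, 3 with equal lists and 6 to 11 without 1 library. The 11 H3K27ac regions of 1 matrix alone became 7 in gene bodies. For H3K4me3 and H3K27me3 the count of 0 ran to 1 without 1 library. Leaving out a library loosens the rule for regions of 1 matrix alone, so such counts can hardly fall. The p-JUN median log2 difference (-0.09) was -0.0011 with the deposited fold, -0.0323 without centring, -0.0472 with the stricter q, -0.0500 without peaks near other genes' starts and -0.11 to -0.07 without 1 library. The H3K4me3 median (0.07) was -0.0146 with the fold, 0.53 without centring, -0.0430 in gene bodies and -0.0199 (without stiff replicate 2) to 0.0908 without 1 library. The H3K27ac median (-0.15) was -0.34 without centring. The 8 p-JUN calls became 0 with the fold, 0 without centring, 5 in gene bodies, 1 with the soft libraries averaged as 1 sample (chosen after seeing the data), 0 without soft replicate 1, 1 without soft replicate 2, 10 without stiff replicate 1 and 3 without stiff replicate 2. Over all shared regions the 5467 p-JUN calls became 0 with the fold, 222 without centring and 1422 to 5352 without 1 library, and the 718 H3K4me3 calls 0, 1 and 274 to 1137. The cause was not tested. Depth limits what the lists can show, since a peak missing from a list is not a level of 0.

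The labels do not say whether same-numbered libraries shared more than a number. The correlation of their deviations was 0.05 for p-JUN and -0.06 for H3K4me3. Libraries of 1 matrix differed by 0.753 to 1.16 of the variance from counting alone, so this correlation cannot show whether they were paired. With the replicate number as a block, the p-JUN calls were 10, of which 8 were shared with the fit without it, and over all regions 6074 for p-JUN and 95 for H3K4me3. The blocked peak ratios were 0.06 for p-JUN and -0.0025 for H3K4me3, and the H3K4me3 median was 0.07. Regions of 1 matrix alone, averaged over pairs, were 14.5 (p-JUN), 0.5 (the start-site mark) and 1.5 (the repressive mark). A pair has 1 library per matrix, so the rule is looser there too. A block value for H3K27me3 peaks could not be had, as each pair holds a 0, nor a ratio with 5 kb, gene bodies, the stricter q, without soft replicate 1 or without stiff replicate 2.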
